A study of Mus musculus with 96 samples.

Results

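The 47 proteasome genes described here were taken by name: every gene whose symbol in the array annotation begins with Psm, a letter from a to g and a digit, with the interferon-induced catalytic subunits Psmb8 and Psmb9 left out. They are 47 of the 18193 genes measured. The naming rule uses no expression value, but the family was chosen with earlier results of these data known. Where several probe sets annotated to 1 gene alone measure it, the one that is brightest on average stands for it, and 26 of the 47 have more than 1 such probe set. By role they divide into 7 alpha ring genes and 7 beta ring genes of the core particle, 6 ATPases, 3 other base or ubiquitin receptor genes and 8 lid genes of the regulatory particle, which make 31 standard subunits. The other 16 are 3 tissue or immune variants of core subunits, 4 activator or inhibitor genes, 7 assembly factors and 2 genes that share the naming pattern without being subunits.

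Liver RNA of CD-1 mice, an outbred stock, was hybridised to Affymetrix arrays after dietary exposure to PB, a compound the labels give only by these letters (in work on liver enzyme induction they commonly stand for phenobarbital, an activator of the nuclear receptor CAR). Both sexes received 5 doses, 0.15, 1.5, 15, 75 and 150, or none (0), for 2 or 7 days, which gives 24 groups of 4 arrays and 96 arrays in all. The study's design text gives these doses in mg/kg-day and the sample titles give the same numbers as ppm, so doses are written below as numbers, and group 0 of the same sex and day is the control. All groups share strain, tissue, diet route and labelling protocol, and the sources used here give neither the age of the mice nor a statement that no 2 arrays share a mouse, so p-values measure the spread between these samples only.

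The 26S proteasome degrades proteins that carry ubiquitin chains. Its barrel-shaped 20S core has outer alpha rings that gate the entrance and inner beta rings that hold the protease sites, and its 19S regulatory particle has a base, whose ATPases unfold the substrate, and a lid, which removes the ubiquitin. Subunits are needed in fixed proportions, and in mammals their genes are known to be induced together by the transcription factor NRF1 (Nfe2l1) when proteasome activity falls. In liver, proteasome content is also known to be influenced by NRF2 (Nfe2l2), the factor behind many antioxidant and conjugating enzymes.

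All values are the deposited log2 levels of a probe set, and a difference in level between probe sets is not read as a difference in expression between genes. The labelled tissue matched its defining markers on all arrays, with Alb between 14.70 and 14.90 and Ttr between 14.55 and 14.74. Array medians lay between 5.35 and 5.44. The CAR target Cyp2b10 was at 11.07 to 11.29 on 3 of the male day 2 arrays labelled 15 and at 13.66 on the other, replicate 1, and it was at 13.19 to 13.36 on 3 of the male day 2 arrays labelled 75 and at 10.98 on the other, also replicate 1. These 2 arrays therefore go against their labels, and the counts for the male 15 and 75 groups, for the mean over the sexes at 75 on day 2 and for the male dose line are given with and without them. The whole fit shares 1 estimate of the spread, so the counts at 150 were also taken without them. On day 2, 14 were higher and 0 lower in females (3.38% and 2.22% of all genes). In day 2 males 11 were higher and 1 lower (2.56% and 2.48%). On day 7, 2 were higher and 0 lower in females (1.57% and 0.973%). In day 7 males 1 was higher and 0 lower (2.28% and 0.89%), a share close to that of the table.

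After 2 days at 150, nearly all standard proteasome genes had small positive estimates in both sexes, and those that passed the test, apart from 1 gene that is no subunit, rose by 1.12-fold to 1.34-fold. In females 14 of the 47 genes rose and 0 fell at an adjusted p under 0.05 (limma, Benjamini-Hochberg adjustment over all 18193 genes), against 3.32% of all genes that rose and 2.14% that fell. In males 10 rose and 1 fell, against 2.5% and 2.4% of all genes. The median log2 change of the 47 was 0.19 in females, where that of all genes was -0.03, and 0.15 in males, where it was -0.02. Of the 31 standard subunits, 30 in females and all 31 in males had a positive estimate. The genes called higher were Psma1, Psma3, Psmb4, Psmb6, Psmd1, Psmd3, Psmd11 and Psmd14 in both sexes, then Psma2, Psma5, Psmb2, Psmb5, Psmc3 and Psmc4 in females and Psma4 and Psmb7 in males. Those called higher in both sexes were 57.1% of the female and 80% of the male calls. No such share over all genes is given here, so the overlap is not read as particular to proteasome genes. All 4 arrays at 150 lay above all 4 at 0 for 23 of the 47 genes in females and 15 in males, against 4.54% and 4.26% of all genes. These are levels in whole liver, in which more RNA per cell and more cells of an expressing type cannot be told apart.

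The counts depended on single arrays. In females the count was 8 without replicate 2 of the 150 group, 9 without replicate 4 of that group and 9 without replicate 2 of the 0 group. In males it was 3 without replicate 4 and 4 without replicate 1 of the 150 group, 4 without replicate 1 and 6 without replicate 3 of the 0 group. None of these refits turned the sign of a called gene, but a gene chosen for passing the test could hardly turn with 1 array left out. No count over all genes is set beside these or the later refits without single arrays, so a loss of calls is not read as particular to proteasome genes.

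**Figure D1:**
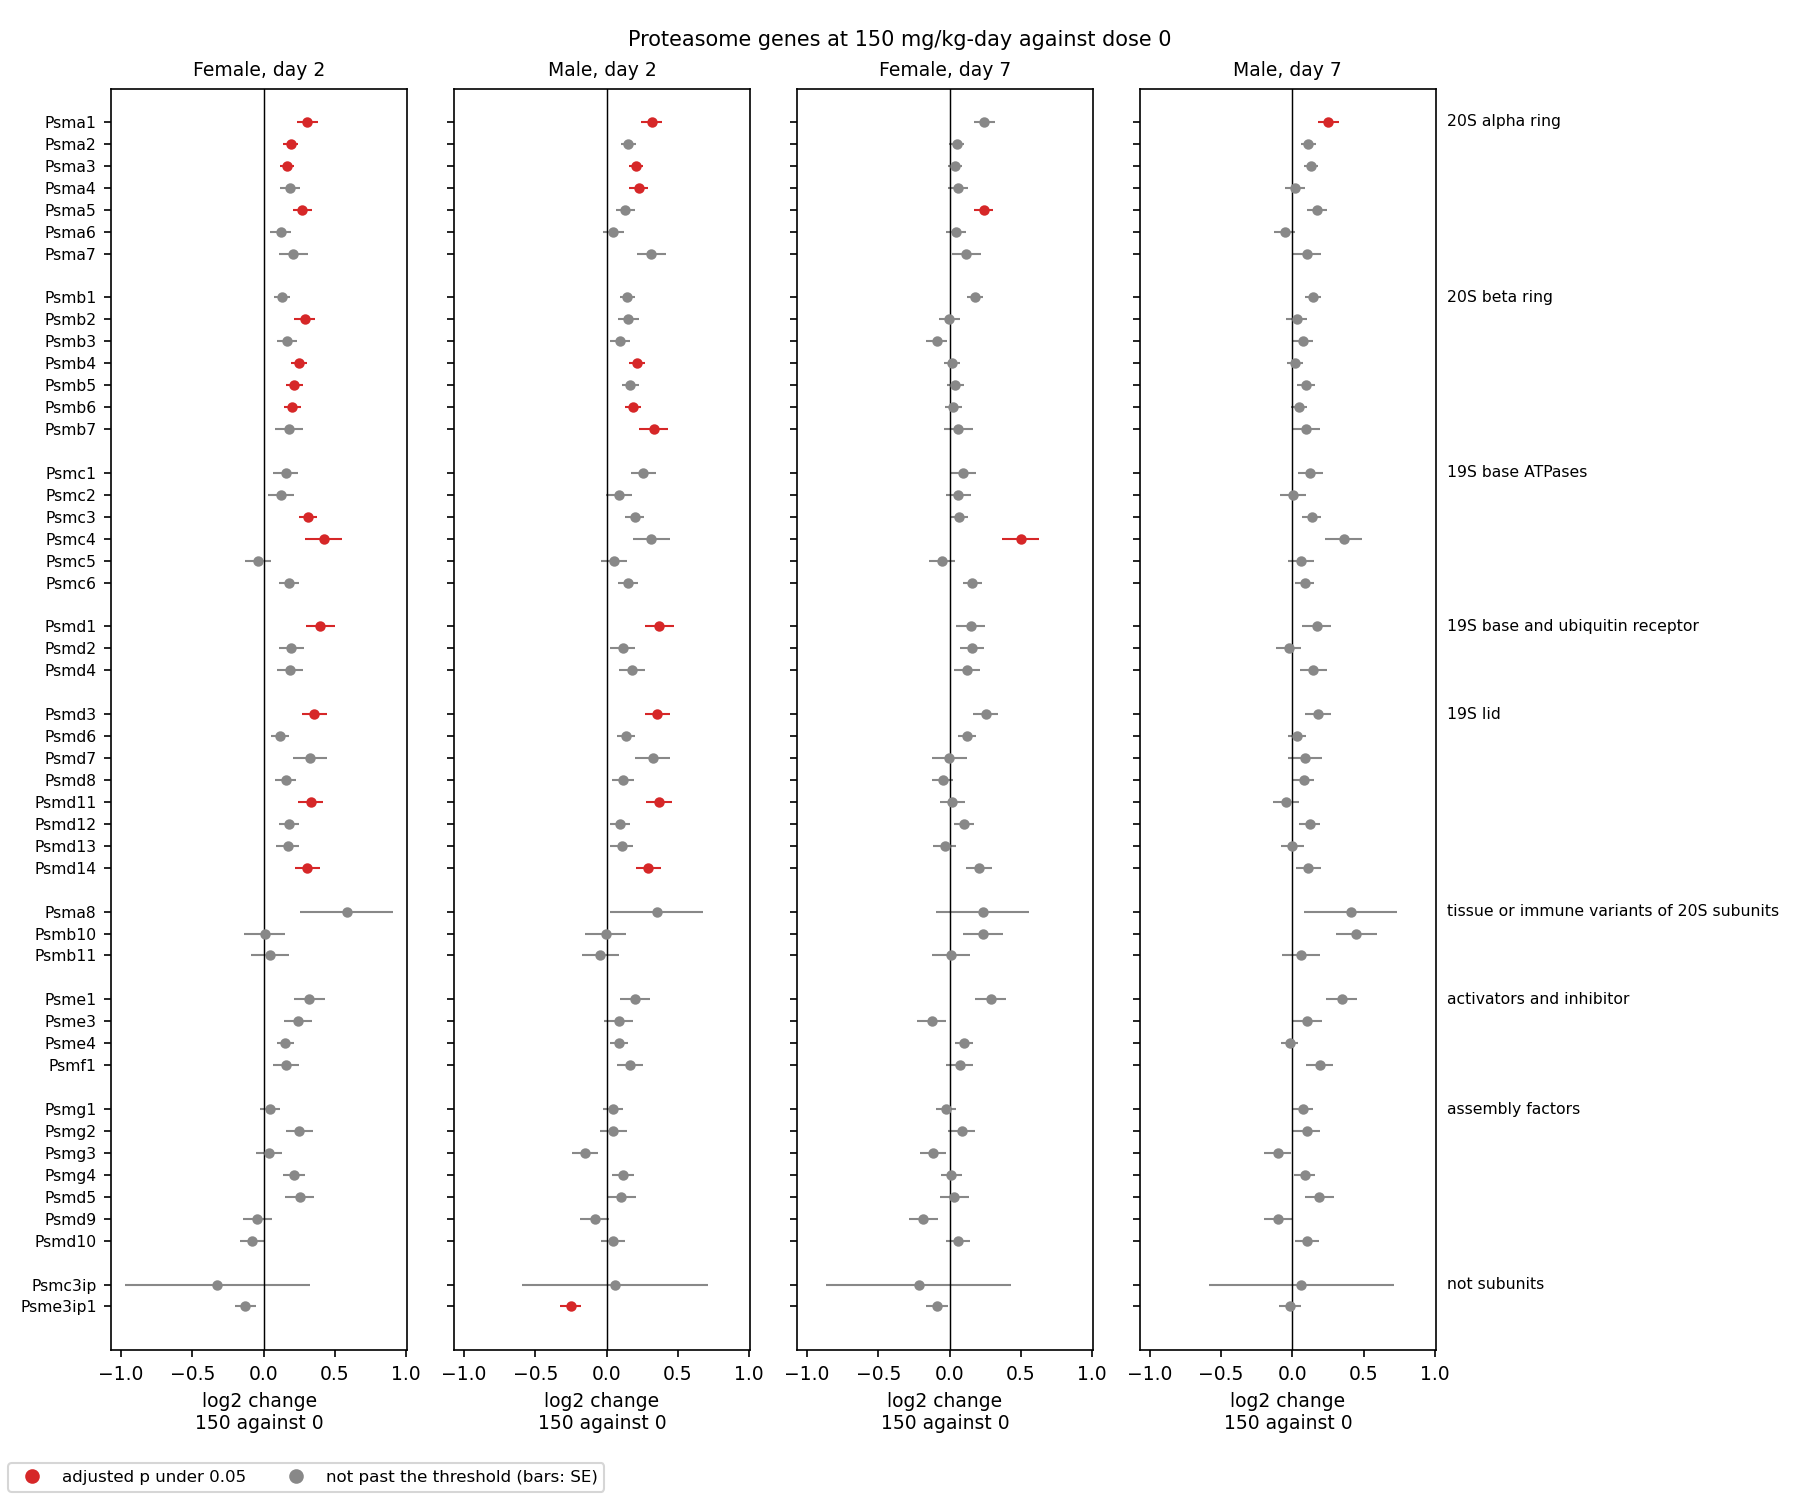
Log2 change at 150 against 0 (x axis) of each of the 47 proteasome genes (rows, grouped by role) in the 4 combinations of sex and day; points are limma estimates with bars of 1 SE, and red points passed an adjusted p of 0.05. On day 2 14 genes are red in females and 11 in males, 1 of these 11 to the left of 0, and on day 7 2 are red in females and 1 in males.

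The alpha ring forms the gate of the core particle, and 5 of its 7 genes passed the test in at least 1 sex on day 2. Psma1 read 11.29, 11.31, 11.42 and 11.37 in females at 150, against 11.11, 10.97, 10.99 and 11.10 at 0, a log2 change of 0.31 ± 0.08 (SE; 1.24-fold, adjusted p = 0.00466). In males it read 11.47, 11.25, 11.34 and 11.46 at 150, against 11.06, 11.13, 11.01 and 11.06 at 0 (0.32 ± 0.08, 1.24-fold, adjusted p = 0.00424). Every array at 150 was thus above every control array of its sex. Psma3 read 12.51, 12.40, 12.46 and 12.48 in males at 150, against 12.24, 12.27, 12.27 and 12.24 at 0 (0.21 ± 0.05, adjusted p = 0.00422). In females it read 12.40, 12.67, 12.46 and 12.53 at 150, against 12.39, 12.31, 12.40 and 12.30 at 0 (0.16 ± 0.05, adjusted p = 0.0287). The male groups were clearly apart, and in females the lowest treated array stood level with the highest controls.

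Psma5, another gate subunit, read 11.43, 11.74, 11.72 and 11.74 in females at 150, against 11.38, 11.33, 11.46 and 11.37 at 0 (0.27 ± 0.07, adjusted p = 0.00532). Its first treated array lay among the controls while the other 3 stood well above them. In males the difference of Psma5 was 0.13 (adjusted p = 0.328). Psma2 rose in females (0.19, adjusted p = 0.0191) and Psma4 in males (0.22 ± 0.07, adjusted p = 0.0353). Of the remaining alpha genes, Psma7 differed by 0.21 in females and 0.31 in males (adjusted p = 0.295 and 0.0549) and Psma6 by 0.12 and 0.05, none of them past the threshold. The group median was 0.19 in females and 0.21 in males.

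The beta ring holds the 3 protease sites of the standard proteasome, those of Psmb5 (chymotrypsin-like), Psmb6 (caspase-like) and Psmb7 (trypsin-like). Psmb6 read 11.67, 11.67, 11.62 and 11.67 in females at 150, against 11.45, 11.40, 11.47 and 11.50 at 0 (0.20 ± 0.06, 1.15-fold, adjusted p = 0.0202). In males it read 11.74, 11.56, 11.58 and 11.65 at 150, against 11.45, 11.40, 11.43 and 11.51 at 0 (0.19 ± 0.06, 1.14-fold, adjusted p = 0.0416). Neither sex showed any overlap between the groups. Psmb5 read 11.43, 11.48, 11.48 and 11.64 in females at 150, against 11.37, 11.20, 11.32 and 11.28 at 0 (0.21 ± 0.06, adjusted p = 0.0174). In males Psmb5 read 11.53, 11.48, 11.37 and 11.59 at 150, against 11.23, 11.21, 11.41 and 11.45 at 0 (0.17, adjusted p = 0.105), with overlap. Psmb7 read 10.56, 10.43, 10.31 and 10.51 in males at 150, against 10.19, 10.17, 9.99 and 10.13 at 0 (0.33 ± 0.10, 1.26-fold, adjusted p = 0.0345). In females its difference was 0.18 (adjusted p = 0.398), from 10.41, 10.24, 10.54 and 10.45 at 150, against 10.30, 10.20, 10.15 and 10.29 at 0. Whether the sexes differ for Psmb5 or Psmb7 was tested directly, and no proteasome gene passed that test.

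Among the beta subunits without a protease site, Psmb4, which closes the ring late in assembly, rose in both sexes. It read 12.51, 12.49, 12.41 and 12.44 in females at 150, against 12.36, 12.13, 12.18 and 12.18 at 0 (0.25 ± 0.06, 1.19-fold, adjusted p = 0.00136). In males it read 12.47, 12.33, 12.35 and 12.53 at 150, against 12.19, 12.21, 12.17 and 12.27 at 0 (0.21 ± 0.06, 1.16-fold, adjusted p = 0.0127). The 2 groups did not overlap in either sex. Psmb2 rose in females (0.29, adjusted p = 0.00684), while Psmb1 and Psmb3 did not pass, with 0.13 and 0.16 in females and 0.15 and 0.09 in males. The median of the 7 beta genes was 0.20 in females and 0.17 in males.

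**Figure D2:**
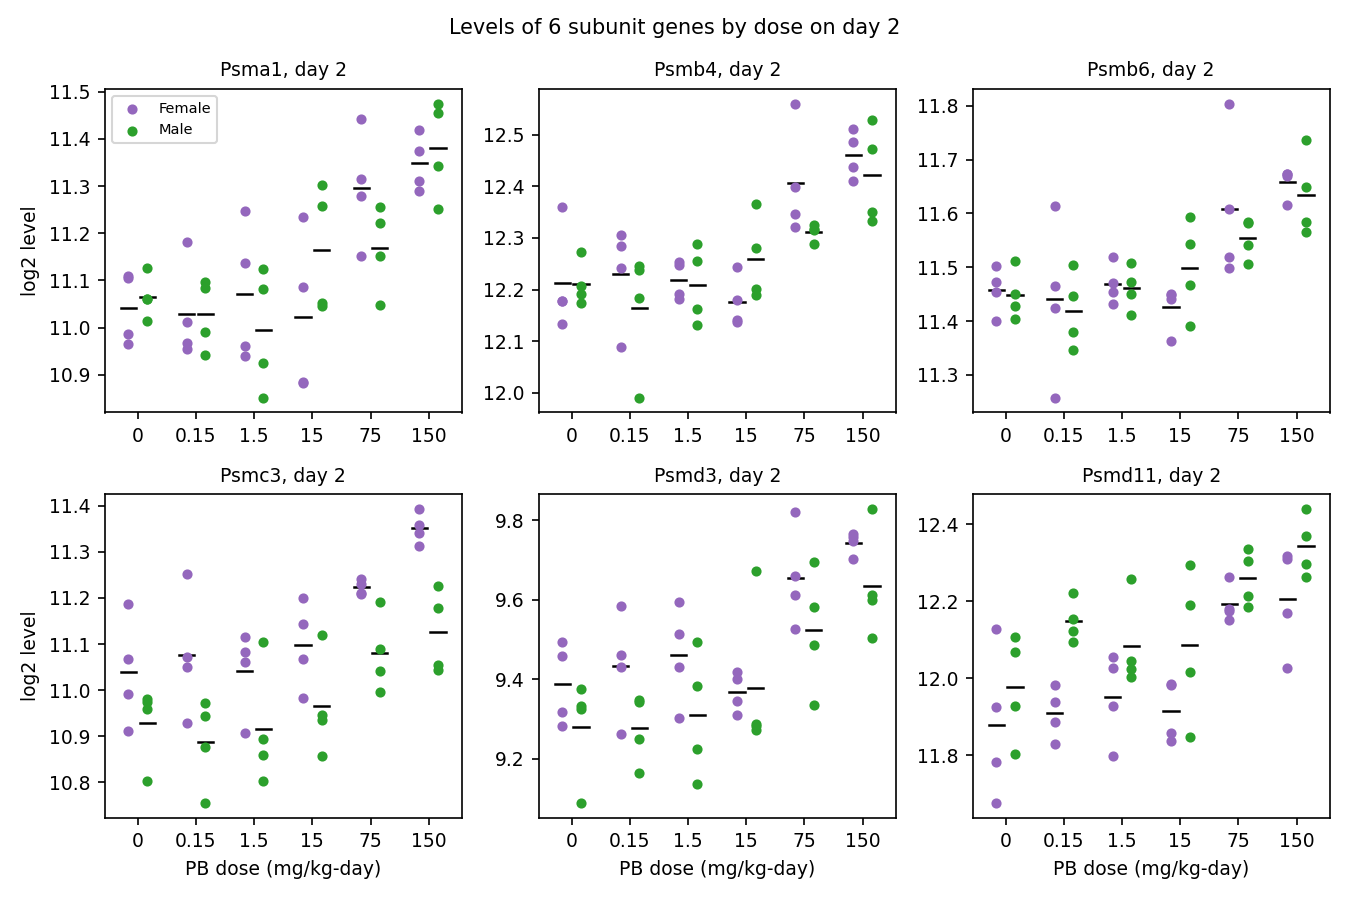
Log2 level (y axis) of Psma1, Psmb4, Psmb6, Psmc3, Psmd3 and Psmd11 on each day 2 array by dose (x axis, in mg/kg-day as in the design text; spacing not to scale); points are arrays, 4 per group, purple for females and green for males, and black bars are group means. Female Psmc3 lies between 11.31 and 11.39 at 150 and between 10.91 and 11.19 at 0.

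The 6 ATPases of the base, which unfold the substrate and thread it into the core, included, in females, both the smallest adjusted p of the 47 genes and the lowest estimate of any standard subunit. Psmc3 read 11.36, 11.31, 11.34 and 11.39 in females at 150, against 11.07, 10.91, 10.99 and 11.19 at 0 (0.31 ± 0.06, 1.24-fold, adjusted p = 0.000413), with no overlap. In males it read 11.18, 11.05, 11.04 and 11.23 at 150, against 10.96, 10.80, 10.98 and 10.97 at 0 (0.20, adjusted p = 0.0604), also apart but past no threshold. Psmc4 read 10.74, 11.20, 11.15 and 11.01 in females at 150, against 10.42, 10.55, 10.72 and 10.73 at 0 (0.42 ± 0.13, 1.34-fold, adjusted p = 0.0369). The treated arrays of Psmc4 spread more widely than those of Psmc3 but all lay above the controls. Male Psmc4 differed by 0.31 (adjusted p = 0.18). Psmc1 differed by 0.15 in females and 0.26 in males, Psmc6 by 0.18 and 0.15, and Psmc2 by 0.12 and 0.09, none past the threshold. Psmc5 differed by -0.04 in females and 0.05 in males (adjusted p = 0.894 and 0.87), and it was the standard subunit with a negative female estimate.

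Of the other base genes, Psmd1, a large scaffold subunit, rose by 0.40 ± 0.10 in females (1.32-fold, adjusted p = 0.00718) and by 0.37 ± 0.10 in males (1.29-fold, adjusted p = 0.0182). Its arrays read 11.39, 11.35, 11.24 and 11.35 in females at 150, against 10.95, 10.92, 11.04 and 10.82 at 0. In males they read 11.35, 11.15, 11.28 and 11.36 at 150, against 10.83, 10.95, 10.78 and 11.10 at 0. The treated arrays were again all above the controls. Psmd2, the scaffold that docks shuttle proteins, differed by 0.19 in females and 0.11 in males. Psmd4, a ubiquitin receptor, read 11.12, 11.11, 11.12 and 11.34 in females at 150, against 11.00, 10.87, 11.09 and 10.98 at 0 (0.19, adjusted p = 0.309), and its male difference was 0.18 (adjusted p = 0.343). Neither Psmd2 nor Psmd4 passed in either sex.

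The lid contains Psmd14, the metalloprotease that cuts ubiquitin chains off the substrate, and 3 of its 8 genes rose in both sexes. Psmd14 read 11.10, 11.00, 10.85 and 11.06 in females at 150, against 10.78, 10.56, 10.70 and 10.73 at 0 (0.31 ± 0.09, 1.24-fold, adjusted p = 0.0247). In males it read 10.97, 10.75, 10.71 and 11.02 at 150, against 10.50, 10.49, 10.58 and 10.71 at 0 (0.29 ± 0.09, 1.22-fold, adjusted p = 0.0387). The female groups were apart, and in males the lowest treated array equalled the highest control to 2 decimals. Psmd3, a structural subunit of the lid, read 9.76, 9.75, 9.70 and 9.77 in females at 150, against 9.49, 9.28, 9.46 and 9.32 at 0 (0.36 ± 0.09, 1.28-fold, adjusted p = 0.00473). Its male arrays read 9.60, 9.61, 9.50 and 9.83 at 150, against 9.33, 9.09, 9.32 and 9.38 at 0 (0.36 ± 0.09, 1.28-fold, adjusted p = 0.00629). Both sexes were free of overlap.

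Psmd11, a lid subunit that clamps the regulatory particle to the core and whose amount is known to limit assembly in some cells, read 12.30, 12.37, 12.26 and 12.44 in males at 150, against 11.80, 12.07, 11.93 and 12.11 at 0 (0.37 ± 0.09, 1.29-fold, adjusted p = 0.00629). In females it read 12.17, 12.32, 12.03 and 12.31 at 150, against 11.78, 11.93, 12.13 and 11.68 at 0 (0.33 ± 0.09, 1.26-fold, adjusted p = 0.0141). One female control array was above the lowest treated array, and the male groups were apart. Psmd7 had nearly the same estimates as the called lid genes, 0.32 in both sexes, but a larger SE of 0.12 (adjusted p = 0.111 and 0.12). Psmd6, Psmd8, Psmd12 and Psmd13 lay between 0.09 and 0.18 in both sexes and did not pass.

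None of the 14 variant, activator or inhibitor and assembly factor genes passed the test in either sex on day 2 at 150. Of all genes 3.32% rose and 2.14% fell in females, and 2.5% and 2.4% in males. With so few genes, 0 of 14 is close to those shares. All 4 activator or inhibitor genes had positive estimates in both sexes, and 5 of the 7 assembly factors had them in each sex. Of the 3 variants, 3 were positive in females and 1 in males. Psmb10, the interferon-induced replacement of Psmb7, read 10.27, 10.22, 10.36 and 10.72 in females at 150, against 10.32, 10.54, 10.40 and 10.27 at 0 (0.01, adjusted p = 0.989). In males it differed by -0.01, and 1 control array, at 10.53, stood above all 4 treated arrays, which lay between 9.96 and 10.12. Psma8, the testis variant of Psma7, and Psmb11, the thymus variant of Psmb5, had means of 5.46 and 4.45 over all arrays and changes of 0.58 ± 0.33 and 0.04 in females and 0.35 and -0.04 in males.

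Psme1, a subunit of the PA28 cap that opens the gate without ATP, read 11.29, 11.26, 11.02 and 11.36 in females at 150, against 10.92, 10.96, 10.88 and 10.88 at 0 (0.32, adjusted p = 0.0659). In males it read 11.03, 11.05, 11.03 and 11.08 at 150, against 10.65, 10.61, 11.31 and 10.82 at 0 (0.20, adjusted p = 0.359). The female groups were apart, and in males the same control array that was high for Psmb10, replicate 3, exceeded every treated array. Its partner Psme2 is measured here only by a probe set annotated to 2 genes and gets no value. Psme3, the nuclear cap, differed by 0.24 in females and 0.08 in males, Psme4, a large nuclear activator, by 0.15 and 0.09, and Psmf1, which can inhibit the core, by 0.16 in each sex. The median of these 4 was 0.20 in females and 0.13 in males.

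The 7 assembly factors had a median of 0.04 in both sexes. Those that pair and stack the alpha ring, Psmg1 to Psmg4, differed by 0.04, 0.25, 0.04 and 0.21 in females and by 0.04, 0.05, -0.15 and 0.11 in males. Those that assemble the base, Psmd5, Psmd9 and Psmd10, differed by 0.25, -0.05 and -0.08 in females and by 0.10, -0.08 and 0.05 in males. The smallest adjusted p of the 7 was that of Psmg4 in females, 0.0915. Of the 2 genes that are not subunits, Psme3ip1, which encodes a protein that binds the Psme3 cap, was the only one of the 47 to fall at 150 on day 2, in males, with 8.73, 8.39, 8.75 and 8.72 at 150 against 9.04, 8.82, 8.81 and 8.93 at 0 (-0.25 ± 0.07, adjusted p = 0.0288); in females its difference was -0.13 (adjusted p = 0.407). Psmc3ip, a meiotic recombination factor, varied widely within groups, for example from 5.59 to 8.51 in the male day 2 controls, and its SE of 0.65 allows no statement.

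At 75 most estimates were positive, but within a sex no proteasome gene passed below 150. At 75 on day 2 no proteasome gene passed in either sex (background 0.308% of genes higher and 0.143% lower in females, 0.363% and 0.077% in males), and 20 were higher and 1, Psmc3ip, lower in females and 11 higher in males at an unadjusted p under 0.05 (4.5% of all genes higher and 5.44% lower in females, 5.22% and 5.34% in males). The median of the 31 standard subunits at 75 was 0.18 in females, with 30 of 31 positive. All 4 arrays at 75 lay above all 4 at 0 for 18 genes in females and 11 in males, against 2.59% and 2.92% of all genes. Without the arrays that go against their labels, the male comparison at 75 again called no proteasome gene (background 0.506% and 0.209%), with 9 higher and 1 lower at an unadjusted p under 0.05 (5.02% and 5.73% of all genes) and 12 whose arrays at 75 all lay above the controls (4.74%). The closest to a call were Psma5 (0.25, adjusted p = 0.0669), Psmb4 (0.19, adjusted p = 0.0981) and Psmd11 (0.31, adjusted p = 0.0981), all in females. At 15, 1.5 and 0.15 no proteasome gene passed in any of the 12 comparisons, which made 18 calls over the whole table (0.00824% of those tested). At an unadjusted p under 0.05 these 12 comparisons gave 7 higher and 5 lower out of 564 estimates of proteasome genes, against 2.4% and 2.66% over all genes. In males on day 2 at 15, 1 was higher at that threshold with and without the arrays that go against their labels.

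Arrays of both sexes combined gave more precise estimates of the mean of the female and male changes. On day 2 at 150, 23 of the 47 rose and 1, Psme3ip1, fell (background 5.36% and 6.72%), and 21 of the 23 were standard subunits, all 31 of which had positive estimates. The other 2 were Psme1 (0.26, adjusted p = 0.0128) and the assembly factor Psmg4 (0.16, adjusted p = 0.0308). The 10 standard subunits not called were Psma6, Psmb3, Psmc2, Psmc5, Psmd2, Psmd4, Psmd6, Psmd8, Psmd12 and Psmd13. At 75, 10 rose and 0 fell (background 1.56% and 1.03%), among them Psmd11 (0.30, adjusted p = 0.00223) and Psmd3 (0.26, adjusted p = 0.00973), and Psmb10 with 0.36. Without the 2 arrays that go against their labels the count at 75 was 9 higher and 0 lower, against 299 higher and 210 lower among all 18193 genes. Psmb10 (0.34, adjusted p = 0.0572), Psma1 (adjusted p = 0.0544) and Psmc1 (adjusted p = 0.055) no longer passed, and Psma5 and Psmd1 did. The count was 4 without replicate 4 of the female 75 group, replicate 2 of the female 0 group or replicate 3 of the male 75 group, 5 without replicate 1 or 2 of the male 0 group, and 6 without replicate 3 of the female 0 group or replicate 2 of the male 75 group.

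**Figure D3:**
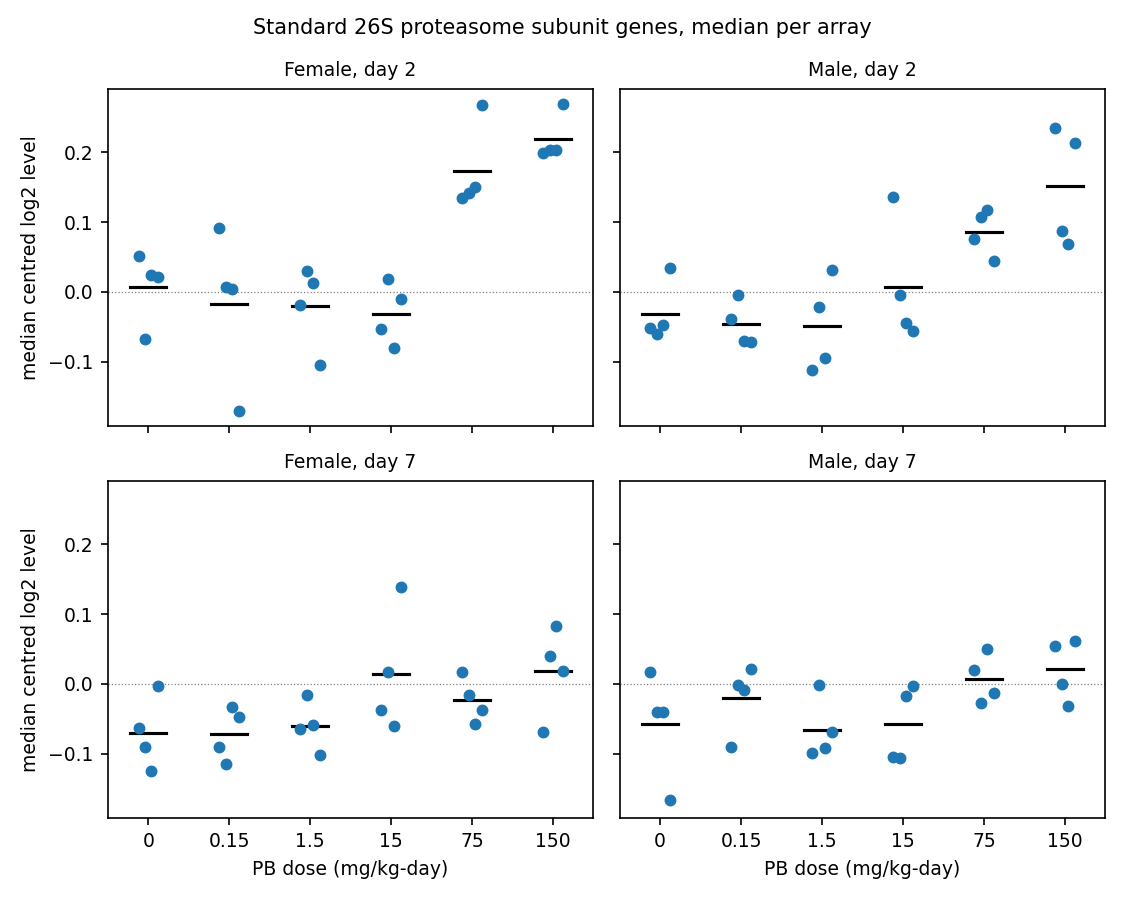
Median over the 31 standard subunit genes of the log2 level minus each gene's mean over all 96 arrays (y axis), for every array by dose (x axis, in mg/kg-day as in the design text; spacing not to scale), with 4 points per group and the mean as a black bar. Female day 2 arrays lie between 0.20 and 0.27 at 150, between 0.13 and 0.27 at 75 and between -0.07 and 0.05 at 0.

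Per array, the median of the 31 standard subunits, each centred on its mean over all 96 arrays, separated the 2 highest doses from the rest in day 2 females. It lay between -0.067 and 0.051 at 0, between -0.170 and 0.092 at 0.15, between -0.105 and 0.031 at 1.5, between -0.081 and 0.019 at 15, between 0.13 and 0.27 at 75 and between 0.20 and 0.27 at 150. No array at 15 or below reached the lowest array at 75. In day 2 males it lay between -0.060 and 0.035 at 0, between -0.056 and 0.14 at 15, between 0.044 and 0.12 at 75 and between 0.069 and 0.24 at 150. Without the arrays that go against their labels the male range was -0.056 to -0.0044 at 15 and stayed at 0.044 to 0.12 at 75. The median change of the 47 genes at 15 was 0.038 with the pair of such arrays and 0.00076 without them.

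A fit of a straight line over the rank of the 6 doses called 24 proteasome genes rising and 0 falling in day 2 females (background 4.54% and 4.19%), and 18 rising and 1 falling in day 2 males (background 3.13% and 2.91%). Without the pair of arrays that go against their labels the male count was 15 rising and 1 falling, against 567 rising and 620 falling among all 18193 genes. The steepest female slope was that of Psmc4, 0.096 log2 units per dose step (adjusted p = 0.00126), and the smallest adjusted p that of Psma5, 1.2e-05. On day 7 the line rose for 6 genes in females (Psma1, Psma5, Psmb1, Psmc4, Psmd3 and Psme1; background 2.36%, with 1.99% falling) and for 3 in males (Psma1, Psma5 and Psmb10; background 3.07%, with 1.39% falling).

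**Figure D4:**
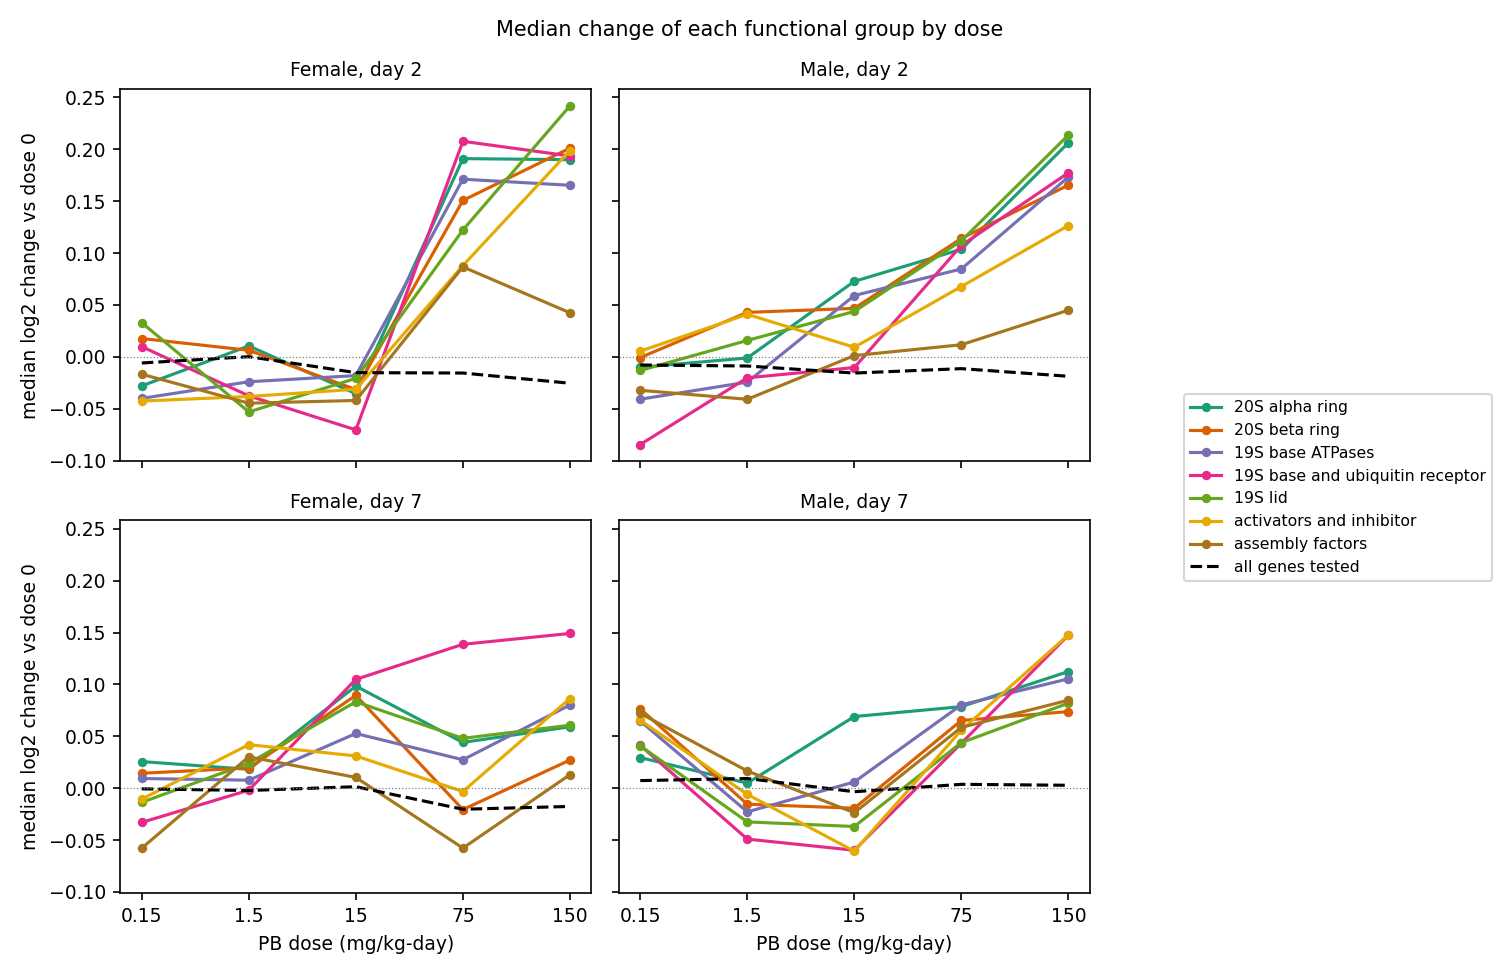
Median log2 change against dose 0 (y axis) of each functional group of proteasome genes at the 5 doses (x axis, in mg/kg-day as in the design text; spacing not to scale), for each sex and day; the dashed line is the median of all genes tested. On day 2 at 150 the alpha ring, beta ring, ATPase, base and lid groups lie between 0.17 and 0.24, and the assembly factors at 0.04.

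After 7 days at 150 few genes passed, and the median estimate was lower than on day 2. In females Psma5 and Psmc4 rose and 0 fell (background 1.52% and 0.923%), with a median change of 0.06 over the 47 genes and 35 positive. In males Psma1 rose and 0 fell (background 2.2% and 0.835%), with a median of 0.09 and 39 positive. The 4 arrays at 150 lay above the 4 at 0 for 8 genes in females and 4 in males, against 4.31% and 5.13% of all genes, so that the male share was close to that of the table. At 75 on day 7 no proteasome gene passed in either sex (background 0.44% higher and 0.324% lower in females, 0.247% and 0% in males), with 4 higher in females and 3 higher in males at an unadjusted p under 0.05 (5.69% and 5.53% of all genes).

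Psma5 read 11.43, 11.56, 11.64 and 11.59 in day 7 females at 150, against 11.43, 11.20, 11.28 and 11.35 at 0 (0.24 ± 0.07, 1.18-fold, adjusted p = 0.034), with the lowest treated array level with the highest control. Psmc4 read 10.38, 10.79, 11.19 and 10.58 at 150, against 10.33, 10.18, 10.17 and 10.25 at 0 (0.50 ± 0.13, 1.41-fold, adjusted p = 0.0188). Replicate 3 of the treated arrays was far above the others, and without it the change was 0.35 (adjusted p = 0.212). The day 7 female count was also 0 without replicate 2 of the 150 group or replicate 2 or 3 of the 0 group, and 1 without replicate 4 of the 150 group. Psma1 read 11.34, 11.41, 11.08 and 11.18 in day 7 males at 150, against 10.98, 11.10, 11.04 and 10.88 at 0 (0.25 ± 0.08, 1.19-fold, adjusted p = 0.044), with 1 control inside the treated range. The male count was 0 without replicate 1 or 2 of the 150 group or replicate 1, 3 or 4 of the 0 group, 4 without replicate 3 of the 150 group and 2 without replicate 4 of it.

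Several genes that had risen on day 2 were close to their controls on day 7. Psmb4 differed by 0.02 in each sex at 150 (adjusted p = 0.944 in females and 0.92 in males), Psmb6 by 0.03 in females and 0.05 in males, Psmd11 by 0.02 and -0.04, and Psmb2 by 0.00 and 0.03. Psmb5 differed by 0.04 and 0.09 and Psmb7 by 0.06 and 0.10. Others stayed nearer to their day 2 values, such as Psmd3 with 0.26 in females and 0.18 in males and Psma1 with 0.24 in females (adjusted p = 0.0601), though these did not pass. With both sexes combined 7 genes rose on day 7 at 150 and 0 fell (background 5.17% and 3.49%): Psma1 (0.25), Psma5 (0.21), Psmb1 (0.16), Psmb10 (0.34), Psmc4 (0.43), Psmd3 (0.22) and Psme1 (0.32).

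The change of response between the days was tested as an interaction and passed for no proteasome gene. The day 7 response minus the day 2 response at 150 had a median of -0.10 in females, where 7 of the 47 estimates were positive, and of -0.04 in males, and 3 and 4 of the 31 standard subunits had positive estimates. At an unadjusted p under 0.05 there were 8 lower and 0 higher in females and 3 lower and 2 higher in males (limma; 4.45% of all genes lower and 3.7% higher in females, 3.02% and 6.33% in males; background of adjusted calls 0.797% lower and 0.077% higher in females, 0.0495% and 0.0824% in males). The smallest p-values were those of Psmd11 in males, -0.41 ± 0.13 (adjusted p = 0.193), and Psmb4 in females, -0.23 ± 0.08 (adjusted p = 0.223). A smaller response on day 7 was therefore not shown for any single gene.

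The female response minus the male response passed for no proteasome gene on either day, in tests that called 0% of all genes higher and 0.0055% lower on day 2, and 0.022% and 0.066% on day 7, and 0 of the 47 reached an unadjusted p under 0.05 on either day (limma; 1.75% of all genes higher and 1.84% lower on day 2, 1.68% and 2.95% on day 7). In the untreated groups on day 2, 0 proteasome genes were called between the sexes (background 1.09% higher and 0.962% lower in females), and 3 were higher and 3 lower in females at an unadjusted p under 0.05 (limma; 6.03% and 5.72% of all genes). On day 7, 2 of the 47 were higher and 1 was lower in females, shares close to the 4.63% and 2.08% of all genes. Psmb10 was higher in females by 0.51 ± 0.14 (adjusted p = 0.0148) and the assembly factor Psmd9 by 0.34 (adjusted p = 0.0243), and Psmd11 was lower in females by 0.28 on the log2 scale (adjusted p = 0.0458). Psmb10 read 10.25, 10.37, 10.43 and 10.50 in day 7 control females, against 9.98, 9.97, 9.98 and 9.58 in day 7 control males, with no overlap.

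At 150 the immune subunit gene Psmb10 had larger estimates on day 7 than on day 2, while at 75 its mean over the sexes was 0.36 on day 2 and 0.35 on day 7. The test of the difference between the days did not pass for Psmb10 in either sex. In the male controls 1 array lay apart on each day, at 10.53 on day 2 (others 9.81 to 9.91) and at 9.58 on day 7 (others 9.97 to 9.98). Both male estimates depend on these arrays. The activator gene Psme1 had positive estimates at 150 on both days. Psmb10 read 10.36, 10.47, 10.15 and 10.32 in day 7 males at 150, against 9.98, 9.97, 9.98 and 9.58 at 0 (0.45 ± 0.14, adjusted p = 0.0632), with all treated arrays above the controls. In day 7 females it read 10.72, 10.69, 10.45 and 10.64 at 150, against 10.25, 10.37, 10.43 and 10.50 at 0 (0.24, adjusted p = 0.494). The mean over the sexes passed at 150 (0.34, adjusted p = 0.0184) and at 75 (0.35, adjusted p = 0.0365). At 75 it was the only gene of the 47, a share close to that of all genes (background 1.97% higher and 0.616% lower). That call was lost after quantile normalization and without some single arrays. Psme1 read 11.25, 11.35, 11.09 and 11.00 in day 7 males at 150, against 10.94, 10.78, 10.79 and 10.80 at 0 (0.34, adjusted p = 0.0592). In day 7 females it read 10.97, 11.15, 10.97 and 11.08 at 150, against 10.41, 10.90, 10.80 and 10.90 at 0 (0.29, adjusted p = 0.16). Neither sex passed alone, and the mean over the sexes did (0.32, adjusted p = 0.00276). Psme3 differed by -0.13 in females and 0.10 in males on day 7, Psme4 by 0.10 and -0.02 and Psmf1 by 0.07 and 0.19.

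Psmb8, the interferon-induced counterpart of Psmb5, rose in the same male comparison, with 10.60, 10.61, 9.93 and 10.28 at 150 against 9.82, 9.79, 9.52 and 9.33 at 0 (0.74 ± 0.22, adjusted p = 0.0386), and the peptide transporter gene Tap1 rose by 0.70 (adjusted p = 0.0203). Of 14 measured immunoproteasome and antigen presentation genes, 4 rose in day 7 males (Psmb8, Tap1 and the interferon-induced GTPases Ifi47 and Irgm1), 1 in day 7 females and 0 on day 2. Markers of Kupffer cells, the resident macrophages of the liver, moved in the same comparison. Their list mean per array lay between 9.63 and 10.26 in day 7 males at 150, against 8.80 to 9.42 at 0, and between 9.70 and 10.20 in day 7 females at 150, against 9.44 to 9.75 at 0. Of 11 such markers 3 rose in day 7 males (Adgre1 by 0.77, Cd5l by 1.10 and Mpeg1 by 1.28), 0 in day 7 females, and 6 with both sexes combined. On day 2 that list mean lay between 9.45 and 10.06 in females at 150, against 9.56 to 10.07 at 0, and between 9.05 and 9.43 in males at 150, against 9.21 to 10.40 at 0. The part of these cells in the levels of Psmb10 and Psme1 was not tested.

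**Figure D5:**
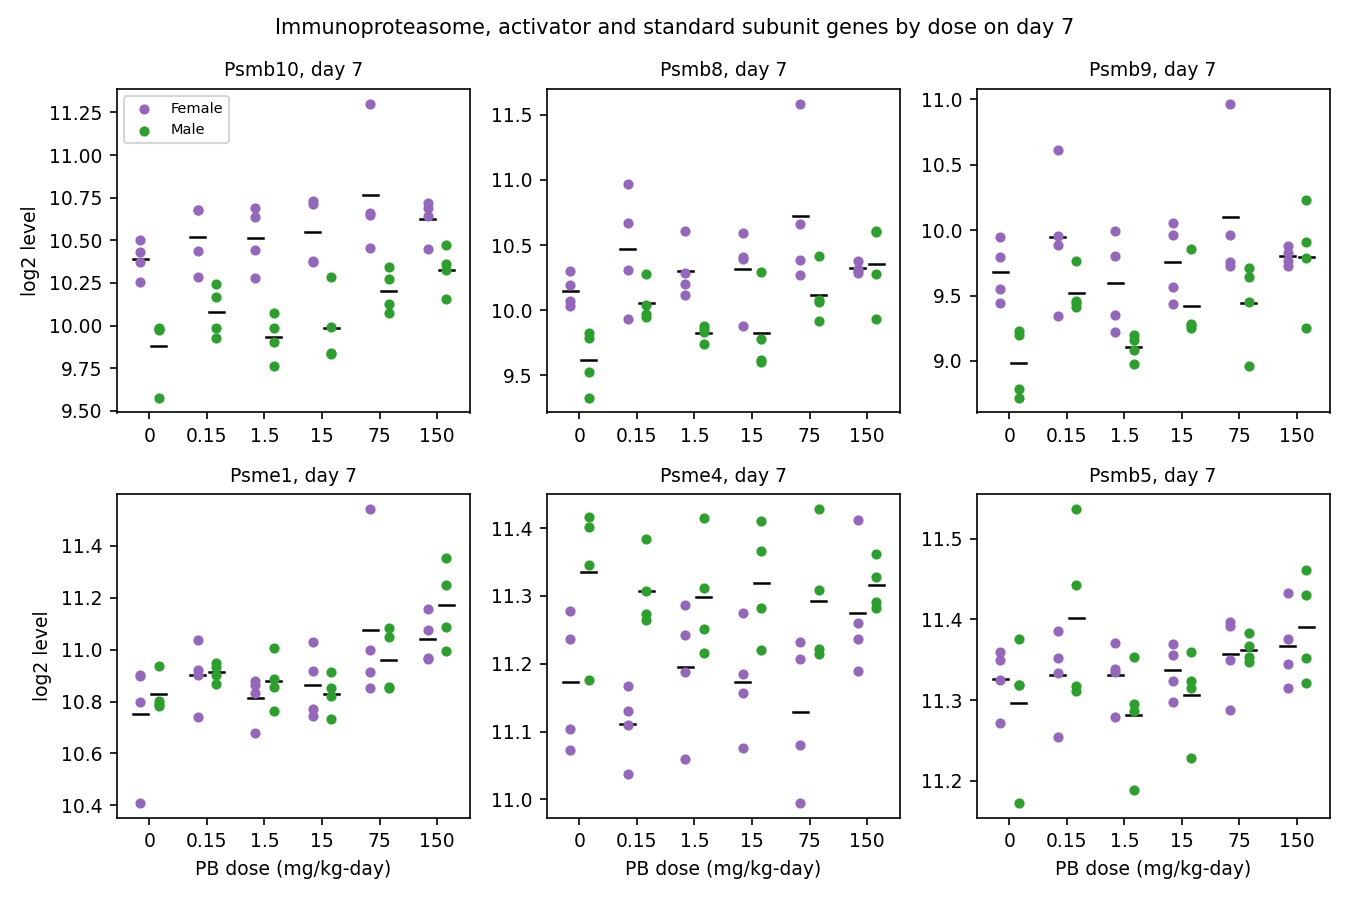
Log2 level (y axis) of Psmb10, Psmb8, Psmb9, Psme1, Psme4 and Psmb5 on each day 7 array by dose (x axis, in mg/kg-day as in the design text; spacing not to scale); points are arrays, 4 per group, purple for females and green for males, and black bars are group means. Male Psmb10 lies between 10.15 and 10.47 at 150 and between 9.58 and 9.98 at 0.

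Proteasome components and partners that carry other names gave no call within a sex. Of 12 measured, 0 passed at 150 in either sex on either day, with medians of 0.06 in day 2 females and -0.01 in day 2 males. On day 2 the core maturation factor Pomp differed by 0.07 in females and 0.14 in males, the small lid subunit Sem1 by -0.04 and -0.01, the deubiquitinase Usp14 by -0.03 and 0.04 and the deubiquitinase Uchl5 by 0.05 and 0.10. Ecpas, an adaptor that binds the particle, had the highest female estimate among those named, 0.32 (adjusted p = 0.051), and passed with both sexes combined, as did the ubiquitin ligase gene Ubr4 in the other direction. On day 7 Pomp differed by 0.13 in females and 0.18 in males and rose in the mean over the sexes. Genes of 2 complexes with a lid-like architecture, the COP9 signalosome and eIF3, gave 1 call of 20 in day 2 females (Cops3) and 0 in males, with medians of 0.06 and -0.02.

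Among regulators and neighbouring pathways the calls were uneven. Nfe2l1 itself differed by 0.03 in day 2 females and -0.01 in day 2 males, and of 11 genes of its pathway 1 fell in each sex, Herpud1, an ER-associated degradation factor (-0.71, adjusted p = 0.0422 in females and -0.99, adjusted p = 0.00232 in males). Nfe2l2 differed by 0.24 in day 2 females (adjusted p = 0.32) and 0.25 in day 2 males (adjusted p = 0.28) and rose in the mean over the sexes, and on day 7 it differed by 0.04 in females (adjusted p = 0.945) and rose by 0.42 in males (adjusted p = 0.0341). Of 19 NRF2 targets, 12 rose in day 2 females and 9 in day 2 males, and 0 fell, with medians of 0.42 and 0.32; the quinone reductase gene Nqo1 rose by 1.18 ± 0.25 in females (adjusted p = 0.000701) and 0.99 in males (adjusted p = 0.00813). Glutathione reductase, Gsr, rose by 0.61 in females (adjusted p = 9.27e-07) and 0.69 in males (adjusted p = 9.39e-08). On day 7, 4 NRF2 targets rose in females and 7 in males. Of 16 heat shock and folding genes 1 rose in day 2 females, the chaperonin gene Tcp1 (0.40, adjusted p = 0.0352), and 0 in males, and of 16 ER stress genes 0 rose in either sex. The p97 ATPase Vcp, which extracts ubiquitylated proteins, did not pass (0.13 and 0.14), and of the 16 genes of its list 0 passed in either sex on day 2 and 1, Derl1, rose in the mean over the sexes. Of 15 autophagy genes, 1 rose and 2 fell in each sex on day 2. Of 8 ubiquitin and E1 or E2 enzyme genes, Cdc34 rose in both sexes on day 2 (0.59 in females and 0.63 in males) and Ube2s in females (0.90).

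Cell division genes rose at the same dose and day as the proteasome genes. All 17 measured members of that list rose at 150 in females and in males, with medians of 2.44 and 2.13 (Mki67 by 2.64 ± 0.49 and 2.32). On day 7, 1 rose in females and 0 in males, with medians of 0.22 and 0.66, where those of all genes were -0.02 and 0.003. In the mean over the sexes on day 7, 2 rose, Pcna and Ect2. The part of cell division in the proteasome levels was not tested. The hepatocyte marker mean per array lay between 14.08 and 14.14 in day 2 females at 150, against 14.17 to 14.23 at 0, and between 14.10 and 14.14 in day 2 males at 150, against 14.19 to 14.21 at 0. Of the other cell lists on day 2, 3 of 8 sinusoidal endothelial genes fell in females and 1 in males, 1 of 4 neutrophil genes rose in females, and 0 of the stellate, cholangiocyte, T and B cell and erythroid genes passed in either sex. On day 7 in males, 3 of 6 stellate genes and 1 of 8 sinusoidal endothelial genes (Stab2) fell, and 1 of 4 neutrophil genes (S100a8) and 1 of 8 T and B cell list genes (Ptprc, expressed by all leukocytes) rose. On day 7 in females, the hepatocyte gene Apoa1 fell and the erythroid gene Alas2 rose. The part of these cells in the day 7 levels of Psmb10 and Psme1 was not tested.

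Over the 24 group means, which share dose, day and sex, the members varied together to different degrees. The correlation of a gene with the mean of the other members was 0.93 for Psmb6, 0.92 for Psmb4, 0.91 for Psmb2 and Psmb5 and 0.90 for Psma3. At the other end were Psmb10 with 0.18, Psma8 with 0.13, Psmc3ip and Psmb11 near 0, Psmd9 and Psmg3 with -0.12 each, and Psme3ip1 with -0.31. Among the standard subunits the lowest were Psmd8 with 0.20, Psmb3 with 0.30, Psma6 with 0.38 and Psmd11 with 0.43. The genes outside the 47 whose 24 group means were most like the members' mean (Pearson's r) were Tpm1, a tropomyosin (0.92), Ptgr1, a prostaglandin reductase (0.90), Sae1, part of the SUMO-activating enzyme (0.90), the replication clamp Pcna (0.90), Alg3 (0.89), Banf1 (0.89), the replicative helicase gene Mcm5 (0.88), Cenpt (0.88), Eif1ax (0.88) and Mybl1 (0.88). Without the arrays that go against their labels, these 10 correlations lay between 0.88 and 0.92, and those of Psmb6 and Psme3ip1 were 0.93 and -0.30. In day 2 females at 150 Ptgr1 rose by 1.13, Pcna by 1.14, Sae1 by 0.71 and Tpm1 by 0.37.

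Promoter windows from RefSeq (GRCm38.p6; 250 bases before to 50 after the start) were matched by symbol for 39 of the 47 genes, 3 of them with a pair of windows, and 4 motifs were searched on both strands. No entry was matched for Psma8, Psmb1, Psmb2, Psmb7, Psmc3, Psmd3, Psmd7 and Psmg2. The windows below belong to genes that rose on day 2 and show, in capitals, a CCAAT box (the NF-Y motif; also written ATTGG on the other strand) in Psma1, the ETS-type motif CCGGAAG in Psmd11, where it lies on the other strand and so reads as its reverse complement, and TGACNNNGC, the core of the antioxidant response element that NRF1 and NRF2 bind, in the catalytic subunit genes Psmb5 and Psmb6. They lie at chr7:114276067-114276366 on the minus strand, chr11:80428365-80428664 on the plus strand, chr14:54617946-54618245 on the minus strand and chr11:70525107-70525406 on the plus strand, each printed 5′ to 3′ along the gene.
Psma1: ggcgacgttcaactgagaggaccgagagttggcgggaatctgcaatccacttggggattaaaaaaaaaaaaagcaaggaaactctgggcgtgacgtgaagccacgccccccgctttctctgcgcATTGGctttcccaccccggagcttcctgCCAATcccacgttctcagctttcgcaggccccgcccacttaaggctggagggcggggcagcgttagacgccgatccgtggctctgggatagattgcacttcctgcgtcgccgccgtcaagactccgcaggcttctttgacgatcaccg
Psmd11: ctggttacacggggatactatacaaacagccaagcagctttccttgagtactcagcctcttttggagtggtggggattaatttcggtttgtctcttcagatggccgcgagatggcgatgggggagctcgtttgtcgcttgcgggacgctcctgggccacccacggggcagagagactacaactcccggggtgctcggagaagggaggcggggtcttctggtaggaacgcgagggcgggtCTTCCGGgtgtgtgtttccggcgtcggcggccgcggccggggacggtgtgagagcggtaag
Psmb5: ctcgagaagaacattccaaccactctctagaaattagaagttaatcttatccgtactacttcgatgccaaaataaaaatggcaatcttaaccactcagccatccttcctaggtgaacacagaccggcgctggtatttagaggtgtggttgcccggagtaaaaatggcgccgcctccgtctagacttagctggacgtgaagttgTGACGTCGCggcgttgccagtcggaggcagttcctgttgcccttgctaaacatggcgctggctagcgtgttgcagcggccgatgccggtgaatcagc
Psmb6: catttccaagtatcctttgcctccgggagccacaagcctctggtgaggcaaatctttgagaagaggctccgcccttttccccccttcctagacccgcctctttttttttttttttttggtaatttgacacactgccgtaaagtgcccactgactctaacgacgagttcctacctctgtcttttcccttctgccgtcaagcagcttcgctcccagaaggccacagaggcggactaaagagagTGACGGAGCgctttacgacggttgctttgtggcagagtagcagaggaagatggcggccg

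TGACNNNGC was found for 6 of the 39 genes (15.4%: Psmb5, Psmb6, Psmc6, Psmd9, Psmd12 and Psme4), against 16.9% of tested genes at or above the median level and 14.0% of all genes with a window. It was in 3 of 17 genes called higher with both sexes combined on day 2 at 150 and in 3 of 22 not called higher. These 22 include Psme3ip1, which was called lower. CCGGAAG was found for 16 genes (41.0%), against 21.2% and 9.93%. The genes called higher held it in 3 of 17 cases (17.6%) and those not called higher, Psme3ip1 among them, in 13 of 22 (59.1%). CCAAT was found for 15 (38.5%), against 42.5% and 41.1%, with 6 of 17 and 9 of 22. The heat shock element, the fourth motif, was in no member window, against 0.617% and 0.662%. These matches describe letters in a window and were not tested against the changes.

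Other probe sets of the same genes gave a second reading. Of 21 that passed a filter on brightness at the median gene, 20 had a positive estimate and 5 rose in day 2 females at 150, against 48.5% and 3.78% of all 15420 probe sets past that filter, and 17 were positive and 3 rose in day 2 males, against 40.7% and 2.49%. On day 7, 16 were positive and 0 passed in each sex, against 47.5% positive and 1.78% called in females and 50.5% and 2.59% in males. Their medians were 0.22 and 0.15 on day 2 and 0.11 and 0.08 on day 7, in females and in males. For Psma5 the second bright probe set changed by 0.25 in day 2 females. A further 32 probe sets of these genes did not pass that filter. When all probe sets of a gene were averaged, dim ones included, the changes of Psma1 were 0.17 in females (adjusted p = 0.23) and 0.12 in males (adjusted p = 0.549), and Psma3, Psma5 and Psmd11 also missed the threshold in females on day 2.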

How the data were processed

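Liver RNA of 96 mouse samples was measured on Affymetrix arrays, 4 per combination of sex, day and dose. The authors deposited 1 table of log2 values per probe set, per the file headers; extraction was by Trizol and labelling with an Enzo kit from 4 µg of total RNA, per the labels' protocols. The background correction and normalization are not given in the sources used here. Of 45101 probe sets, 64 controls were left out; 34945 carried 1 symbol, 932 several and 9160 none. The highest-mean probe set was kept per gene, giving 18193 genes. The precision is limited by 4 arrays per group.

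A group-means model over all 96 arrays was fitted with limma 3.58.1 (R 4.3.3; 72 residual degrees of freedom), with 42 contrasts each adjusted by Benjamini-Hochberg and called at 0.05; the arrays were not normalized again. The scripts were tested on simulated data. The proteasome genes and the 20 other gene lists (251 genes) were chosen with earlier results of these data known. All members were named; of other lists, up to 4 genes with the smallest adjusted p at 150 and genes fixed by name. Replicate numbers did not pair samples, so no block was used. The alternatives were quantile normalization, dim genes left out, the mean over probe sets, arrays of 1 sex and day only, another variance model, a replicate block, and leaving out arrays; leaving out the 2 arrays that go against their labels was chosen after seeing the data. Plots were drawn with matplotlib 3.10.9, and Python was 3.11.15 with pandas 2.3.3.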

Additional observations from a re-analysis of the deposited data

Results flagged for a closer look

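In 14 of 140 groups of 4 arrays, 1 array lay far from the other 3, by a threshold that chance alone passes in about 1 in 20 groups. The number of flags is not read against that rate. The same arrays were examined for several related genes, and Cyp2b10 and Cyp2c55 only in the male day 2 groups labelled 15 and 75, which hold the arrays that go against their labels. The median of the 31 standard subunits was 0.269 on 1 female day 2 array at 150 (others 0.199 to 0.204), 0.268 on 1 female day 2 array at 75 (others 0.134 to 0.151) and 0.0348 on 1 male day 2 array at 0 (others -0.0597 to -0.0473). Among single genes, Psma5 was at 11.43 on 1 female day 2 array at 150 (others 11.72 to 11.74), Psmb6 at 11.62 there on another (others at 11.67), and Psmd4 at 11.34 (others 11.11 to 11.12). Psmd4 was also at 11.21 on 1 male day 7 array at 150 (others 11.00 to 11.03). In the male controls, Psmc3 was at 10.80 (others 10.96 to 10.98) and Psmb10 at 10.53 (others 9.81 to 9.91) on day 2, and Psmb10 was at 9.58 (others 9.97 to 9.98) and Psme1 at 10.94 (others 10.78 to 10.80) on day 7. The male day 2 arrays that go against their labels were picked out by Cyp2b10, at 13.66 in the group labelled 15 and at 10.98 in the group labelled 75, and by Cyp2c55, at 9.82 in the group labelled 75. No proteasome gene's response differed between the sexes or the days by the test of that difference.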

How the results depend on the processing

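Small changes on 4 arrays per group limit the number of calls. The counts in this section have no share of all genes beside them. Of 28 gene-level calls at 150, 169 of 196 refits under the other settings kept the call, 27 lost it and 0 turned the sign. With the arrays of that sex and day alone 12 of the 28 were kept, with probe sets averaged 20 and after quantile normalization 25. Each of the other settings kept all 28. With 1 array left out, 150 of 224 refits kept the call and 74 lost it, with 0 turned. Only genes already called were followed and the refits reuse most of the same data, so a turned sign could hardly occur. With the arrays of 1 sex and day alone, the genes that rose at 150 numbered 7 in day 2 females, 6 in day 2 males, 0 in day 7 females and 2 in day 7 males, those that fell in day 2 males 0, and the dose lines 3 in day 7 females, with 0 falling in day 2 males. After quantile normalization the counts at 150 on day 7 were 1 in females and 0 in males, that at 75 over both sexes on day 7 was 0, and the male day 7 line was 1. With dim genes left out, 2 genes rose in day 2 females at 75, and 4 in females and 3 in males on day 7 at 150. With probe sets averaged, 1 rose in day 2 females at 75, 0 in day 7 males at 150, the day 7 lines were 1 in females and 0 in males, and 1 gene differed between the control sexes on day 7.

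With 1 array left out the counts at 150 ranged from 8 to 13 in day 2 females, 3 to 11 in day 2 males (0 to 1 falling), 0 to 3 in day 7 females and 0 to 4 in day 7 males, and over both sexes from 21 to 29 on day 2 (0 to 1 falling) and 5 to 8 on day 7. At 75 they ranged from 0 to 1 in day 2 females and in day 2 males, and over both sexes from 4 to 11 on day 2 and 0 to 2 on day 7. The dose lines ranged from 19 to 26 and 2 to 7 in females and from 12 to 18 (0 to 1 falling) and 0 to 3 in males on days 2 and 7, and differences between the control sexes from 0 to 1 on day 2 and 0 to 3 on day 7. Same-numbered arrays did not deviate together (r from -0.161 to 0.139 over 16 sets, 2 over 0.1), so the numbers do not pair samples; with the replicate block the male day 7 line was 1, and all 28 gene-level calls were kept.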
